A study of Mus musculus with 15 samples.

Results

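Insulin signalling genes and the insulin-responsive glucose transporter Slc2a4 were followed in mouse embryonic fibroblasts (MEFs) that were driven towards fat cells. The set comprised 9 genes listed by their place in the insulin receptor pathway, namely Insr, Irs1, Irs2, Sh2b2, Pik3r1, Akt1, Akt2, Foxo1 and Slc2a4, out of 46603 Ensembl gene identifiers in the count files. All 9 were found by symbol, and all 9 passed the filter on low counts that left 15997 genes for testing. Slc2a4 passed that filter only through the treated groups. The cells were wild-type BALB/c MEFs that the labels assign to embryos of 10.5 days, and RNA-seq libraries were available for 5 conditions with 3 libraries each, numbered 1, 3 and 4. MEFD0 was collected at day 0 in DMEM with 10% FBS. MEFD3plu received the same medium with 0.5 mM IBMX (3-isobutyl-1-methylxanthine, which blocks cyclic AMP breakdown), 10 μg/mL insulin, 1 μM dexamethasone (a synthetic glucocorticoid) and 10 μM rosiglitazone (a PPARγ agonist) for 3 days, and MEFD5plu was collected at day 5, after the cocktail had been replaced by growth medium at day 3. MEFD3min and MEFD5min were the untreated cells of the same days. MEFs are a mixed primary culture and not a single clone, the insulin was part of the cocktail and was not varied on its own, and the labels do not say whether replicates were separate isolations, so p-values measured the spread between these libraries.

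Insulin binds the receptor tyrosine kinase Insr, which phosphorylates the adaptors Irs1 and Irs2 and binds the adaptor Sh2b2. Phosphorylated Irs proteins recruit PI3K through its regulatory subunit, the main product of Pik3r1, and the lipid that PI3K makes brings the kinases Akt1 and Akt2 to the membrane, where they become active. Active Akt keeps the transcription factor Foxo1 out of the nucleus and sends vesicles with GLUT4, the protein of Slc2a4, to the cell surface, a response known from fat and muscle cells. Transcript counts measure neither phosphorylation nor transport.

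Libraries held between 24030558 and 37281126 counts. Levels are given as CPM, counts scaled to a common library size with TMM factors (edgeR's correction for differences in RNA composition). The summed level of 8 adipocyte markers (Adipoq, Fabp4, Plin1, Cidec, Lpl, Retn, Pparg and Cebpa) ranged from 42.2 to 65.2 CPM over the 9 untreated libraries, from 7553 to 9321 CPM in MEFD3plu and from 9823 to 11638 CPM in MEFD5plu, with 8 of 8 markers above 3 counts in at least 1 library of both treated groups. All 8 fibroblast markers were above that floor in every condition, with a summed level of 8252 to 9297 CPM in MEFD0, 20764 to 28085 CPM in MEFD3min, 10946 to 12110 CPM in MEFD3plu, 12006 to 13635 CPM in MEFD5min and 11318 to 12595 CPM in MEFD5plu. Of 9 muscle markers, Myod1, Myf5 and Myh6 had 0 counts in every library, while Myog had counts in MEFD5plu only. In MEFD5plu 2 of the 9 were above the floor in at least 1 library, and in MEFD3plu 0 were. The 9 muscle markers together summed to at most 0.0341 CPM in MEFD3plu and 0.784 CPM in MEFD5plu. Fewer cells of a type and less RNA per cell cannot be told apart in these bulk libraries. 1 library stood apart. MEFD3min replicate 3 held the highest level of its group for Insr, Irs1, Irs2, Sh2b2, Pik3r1, Akt1, Akt2 and Foxo1, and it had 27 counts of Adipoq where replicates 1 and 4 had at most 1. The members' treated differences at day 3 that passed the test, Slc2a4 apart, are therefore also given without it, as are several of their changes between days.

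Promoter windows were taken from RefSeq (build GRCm38.p6, 300 bases around an annotated start) for 7 of the 9 genes. Insr and Slc2a4 had no window in the table. The windows of Sh2b2, Foxo1 and the upstream start of Pik3r1 are shown, since these were the members with a window whose level rose the most by day 3 of treatment. Capitals mark matches, on either strand, to any of 6 motifs searched, which were the cyclic AMP response element (CRE) TGACGTCA, the FOXO motif GTAAACA, the GC box GGGCGG, the E-box CACGTG, the C/EBP motif TTGCNNAA and CCAAT, with overlapping matches run together.
Sh2b2 (chr5:136244891-136245190, minus strand): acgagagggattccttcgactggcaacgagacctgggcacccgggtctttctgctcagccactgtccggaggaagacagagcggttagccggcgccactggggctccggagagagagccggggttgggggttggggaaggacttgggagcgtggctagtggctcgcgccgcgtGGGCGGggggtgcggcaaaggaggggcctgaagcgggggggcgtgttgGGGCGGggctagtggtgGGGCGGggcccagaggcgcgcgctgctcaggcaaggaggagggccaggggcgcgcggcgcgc
Foxo1 (chr3:52268087-52268386, plus strand): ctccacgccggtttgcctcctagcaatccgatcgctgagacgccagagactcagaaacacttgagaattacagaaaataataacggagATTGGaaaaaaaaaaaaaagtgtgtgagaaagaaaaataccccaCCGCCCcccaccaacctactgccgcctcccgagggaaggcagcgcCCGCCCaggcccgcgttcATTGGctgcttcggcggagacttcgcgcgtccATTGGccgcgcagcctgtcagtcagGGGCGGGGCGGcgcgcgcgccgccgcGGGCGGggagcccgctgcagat
Pik3r1 (chr13:101768168-101768467, minus strand): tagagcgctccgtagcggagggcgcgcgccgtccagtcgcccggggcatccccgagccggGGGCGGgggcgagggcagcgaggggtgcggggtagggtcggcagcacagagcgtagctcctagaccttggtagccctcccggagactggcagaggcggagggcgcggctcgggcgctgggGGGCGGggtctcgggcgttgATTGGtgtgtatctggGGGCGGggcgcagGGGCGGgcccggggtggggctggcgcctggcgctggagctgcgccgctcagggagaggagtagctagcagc
The Sh2b2 window held 3 GC boxes, the Foxo1 window 5 GC boxes and 3 CCAAT matches, and the Pik3r1 window 4 GC boxes and 1 CCAAT match. GC boxes occurred in 35.7% and CCAAT in 37.4% of all 32851 windows in the table, so a match was common. The CRE (1.79% of all windows), the FOXO motif (3.65%), the C/EBP motif (10.8%) and the E-box (7.15%) were not found in these 3 windows. The E-box occurred once each in the windows of Irs1 and Irs2, and the FOXO motif once, in the upstream of 2 Akt1 windows.

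Counts of members are given over the 8 that were above 3 counts in every condition, since Slc2a4 was tested only because it was high in treated cells. At day 3, 6 of the 8 differed between MEFD3plu and MEFD3min, beside 56.1% of all genes tested, by the quasi-likelihood test of edgeR, adjusted by the Benjamini-Hochberg method over all 15997 genes. Sh2b2, Foxo1, Pik3r1, Insr and Akt2 were higher in treated cells and Akt1 was lower, where 28.0% of all genes were called higher and 28.0% lower. Irs1 and Irs2 did not pass the test. Without MEFD3min replicate 3 the same test also called 6 of the 8. Leaving out that library, the highest of its group, made the rises larger and the fall of Akt1 smaller. With any 1 library left out, the smallest log2 fold changes of the rises were 3.71 (Sh2b2), 1.61 (Foxo1), 1.01 (Pik3r1), 0.55 (Insr) and 0.29 (Akt2). At day 5, 5 of the 8 passed, beside 50.5% of all genes, with Sh2b2, Pik3r1 and Akt2 higher in MEFD5plu (26.3% of all genes) and Irs1 and Akt1 lower (24.2% of all genes). The day 5 count was 2 without MEFD5plu replicate 4, and 3 without MEFD5plu replicate 3 or without MEFD5min replicates 1 or 3. Scaling by total counts alone also gave 5, with 2 higher and 3 lower, but shifted the centre of the 15997 log2 fold changes, as their median, from 0.010 to -0.15 and the share of called genes that were higher from 52.1% to 37%. The libraries of the compared groups did not overlap for 56.8% of all genes at day 3 and for 62.1% at day 5, which is the background for the overlaps given below. The treatment effect itself changed between the days for Sh2b2, Foxo1 and Insr (3 of the 8 members by the interaction term, and 4 without MEFD3min replicate 3, which adds Irs1, beside 48.5% of all genes), and each was more positive at day 3, as for 22.6% of all genes.

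**Figure D1:**
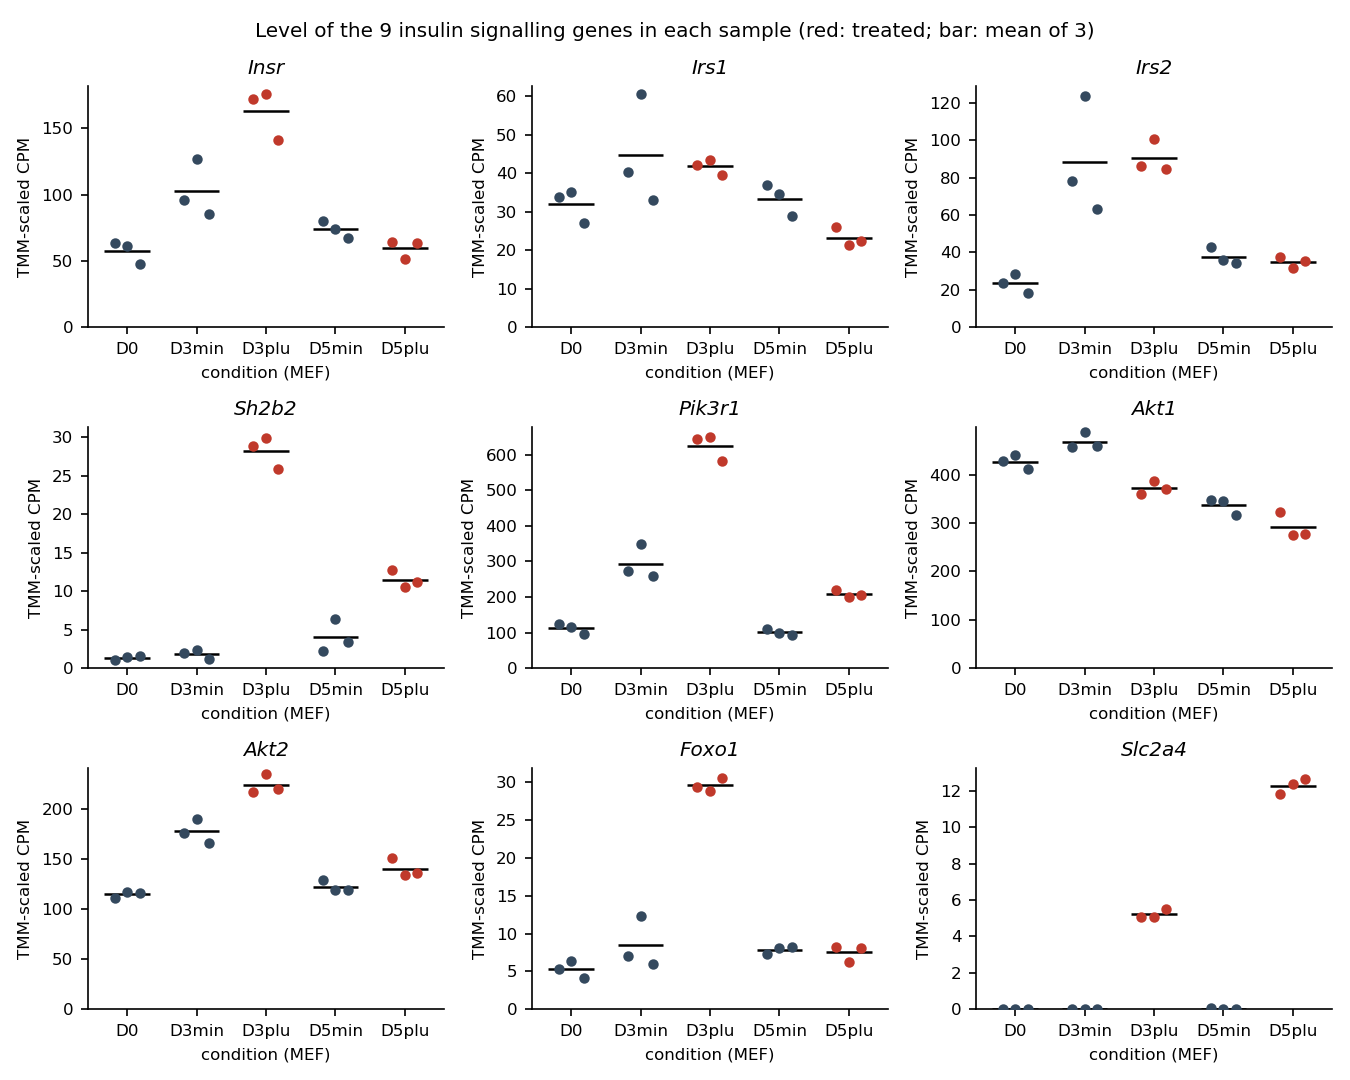
TMM-scaled CPM (vertical axes, each from 0) of the 9 insulin signalling genes in every library of the 5 conditions, with treated conditions in red and a bar at the mean of 3. Sh2b2 and Foxo1 peaked in MEFD3plu (means of 28.2 and 29.6 CPM), Slc2a4 rose from 5.22 CPM in MEFD3plu to 12.3 CPM in MEFD5plu, and 1 library of MEFD3min lay above the other 2 for Irs2.

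Insr (ENSMUSG00000005534, GRCm38 chr8:3122061-3279617, minus strand), the insulin receptor, rose with time in culture, rose further under treatment and was lower again at day 5. Its level was 63.2, 61.2 and 47.7 CPM in MEFD0, 95.6, 127 and 85.5 CPM in MEFD3min, and 172, 176 and 141 CPM in MEFD3plu. At day 5 it was 79.8, 73.9 and 67.6 CPM in MEFD5min and 64.1, 51.5 and 63.8 CPM in MEFD5plu. The 3 MEFD3plu libraries lay above all 12 others, and treated and untreated libraries overlapped on neither day. MEFD3plu exceeded MEFD3min 1.59-fold (log2 fold change 0.66, SE 0.14, adjusted p = 0.000778), and by a log2 fold change of 0.85 without MEFD3min replicate 3 (adjusted p = 2.94e-05). The day 5 difference was in the opposite direction, at -0.30 (SE 0.14, adjusted p = 0.0931), and did not pass the test. It passed in 7 of 22 other settings, among them DESeq2 (-0.35, adjusted p = 0.0486) and the fits without MEFD3min replicate 3 (-0.30, adjusted p = 0.0375) and without MEFD5min replicate 4 (-0.40, adjusted p = 0.0488). The 2 effects differed by 0.97 on the log2 scale (SE 0.20, adjusted p = 0.00087), and by 1.15 without MEFD3min replicate 3. In order of level, MEFD0, MEFD5plu and MEFD5min came lowest, with neither pair of neighbours differing (adjusted p of 0.73 and 0.0931), followed by MEFD3min and MEFD3plu. The outer 2 of the lowest 3 differed, since MEFD5min was called higher than MEFD0 (0.36, SE 0.14, adjusted p = 0.0494). That call was lost in 13 of 22 other settings.

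Irs1 and Irs2, the adaptors that link the receptor to PI3K, showed no treated difference at day 3 that passed the test. Irs2 (ENSMUSG00000038894, GRCm38 chr8:10984681-11008458, minus strand) was 23.7, 28.7 and 18.5 CPM in MEFD0, 78.3, 124 and 63.2 CPM in MEFD3min and 86.2, 101 and 84.8 CPM in MEFD3plu. It stood at 43.0, 35.7 and 34.3 CPM in MEFD5min and at 37.4, 31.7 and 35.2 CPM in MEFD5plu. Both day 3 groups were thus above all MEFD0 and day 5 libraries, and treated and untreated libraries overlapped on both days. The rise from MEFD0 to MEFD3min was 3.74-fold (log2 fold change 1.90, SE 0.20, adjusted p = 3.05e-07), and stood at 1.58 without MEFD3min replicate 3. The treated difference was 0.032 at day 3 (SE 0.19, adjusted p = 0.903) and -0.11 at day 5 (SE 0.20, adjusted p = 0.66). Without MEFD3min replicate 3 the day 3 value was 0.35 (adjusted p = 0.0502). Its condition order was MEFD0, MEFD5plu, MEFD5min, MEFD3min and MEFD3plu, in which neither the day 5 pair nor the day 3 pair differed.

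Irs1 (ENSMUSG00000055980, GRCm38 chr1:82233101-82291416, minus strand) was 33.9, 35.3 and 27.0 CPM in MEFD0, 40.4, 60.8 and 33.2 CPM in MEFD3min and 42.2, 43.6 and 39.6 CPM in MEFD3plu, with the day 3 groups overlapping. At day 5 it was 36.9, 34.5 and 29.0 CPM in MEFD5min and 26.0, 21.2 and 22.5 CPM in MEFD5plu, where every treated library lay below every untreated one. The day 3 difference was -0.10 (SE 0.17, adjusted p = 0.633) and turned to 0.18 (adjusted p = 0.244) without MEFD3min replicate 3. The fall at day 5 was -0.52 (SE 0.17, adjusted p = 0.0174), and it did not pass without MEFD5min replicate 1 (-0.45, adjusted p = 0.0697), MEFD5plu replicate 3 (-0.46, adjusted p = 0.0701) or MEFD5plu replicate 4 (-0.50, adjusted p = 0.0545). The 2 effects differed by 0.42 (SE 0.24, adjusted p = 0.159), and by 0.71 (adjusted p = 0.00261) without MEFD3min replicate 3. Of the Irs1 exon bases, 30.9% overlap the antisense gene Gm9747, which had 0 counts in every library. The strand setting of the counting is not given, so those 0 counts do not show that Irs1 reads in the shared stretch were counted. Irs1 counts per kb of its full exon length, and the size of the ratios to Irs2 below, carry that limit. Within a library, the Irs1 to Irs2 ratio of counts per kb of exon was 0.850 to 1.01 in MEFD0, 0.339 to 0.363 in MEFD3min and 0.300 to 0.339 in MEFD3plu, so that Irs2 counts per kb were above those of Irs1 in every day 3 library. At day 5 the ratio was 0.586 to 0.668 in MEFD5min and 0.442 to 0.480 in MEFD5plu, lower in treated cells by a log2 difference of -0.41 (SE 0.069, two-sided exact permutation p = 0.1, the smallest that 3 against 3 can give).

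Sh2b2 (ENSMUSG00000005057, GRCm38 chr5:136218147-136246556, minus strand) encodes the adaptor also called APS, which binds the activated receptor and recruits Cbl, and it had the largest fitted change of the 8 members that were above the floor in every condition. It was 1.06, 1.43 and 1.54 CPM in MEFD0, 1.91, 2.39 and 1.14 CPM in MEFD3min and 28.9, 29.9 and 25.9 CPM in MEFD3plu. At day 5 it was 2.21, 6.42 and 3.38 CPM in MEFD5min and 12.7, 10.5 and 11.2 CPM in MEFD5plu. All 6 treated libraries lay above all 9 untreated ones. MEFD3plu exceeded MEFD3min 15.4-fold (log2 fold change 3.94, SE 0.29, adjusted p = 3.92e-09), or by 4.19 on the log2 scale without MEFD3min replicate 3, and MEFD5plu exceeded MEFD5min 2.94-fold (1.55, SE 0.27, adjusted p = 0.000134). The day 3 effect was larger by 2.39 on the log2 scale (SE 0.39, adjusted p = 9.23e-05), and by 2.64 without MEFD3min replicate 3. From MEFD3plu to MEFD5plu the gene fell by 1.30 (adjusted p = 0.000202). In untreated cells it rose from MEFD3min to MEFD5min by 1.09 (SE 0.31, adjusted p = 0.00844), with overlapping libraries, and that rise did not pass without MEFD5min replicate 3, the library at 6.42 CPM (0.61, adjusted p = 0.0648), and was 1.34 without MEFD3min replicate 3.

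Pik3r1 (ENSMUSG00000041417, GRCm38 chr13:101680563-101768217, minus strand), the regulatory subunit of PI3K, rose with time in culture to day 3 and with treatment on both days. It was 124, 115 and 95.7 CPM in MEFD0, 272, 350 and 259 CPM in MEFD3min and 646, 650 and 582 CPM in MEFD3plu. It then was 110, 99.2 and 92.7 CPM in MEFD5min and 220, 201 and 206 CPM in MEFD5plu. Treated libraries lay above untreated ones on both days, and MEFD5min overlapped MEFD0. Treatment raised Pik3r1 2.13-fold at day 3 (log2 fold change 1.09, SE 0.12, adjusted p = 3.84e-07, or 1.24 without MEFD3min replicate 3) and 2.08-fold at day 5 (1.06, SE 0.12, adjusted p = 1.25e-06). The difference between these effects was 0.037 (SE 0.16, adjusted p = 0.876), and 0.18 without MEFD3min replicate 3 (adjusted p = 0.289). MEFD3min exceeded MEFD0 by 1.40 on the log2 scale (adjusted p = 1.75e-08), and 1.25 without MEFD3min replicate 3. Only MEFD5min and MEFD0, the 2 lowest conditions, did not differ from their neighbour in the order of levels (adjusted p = 0.313).

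Pik3r2, which encodes a second regulatory subunit, was at 153 ± 21.6 CPM (SD, n = 3) in MEFD3min and 194 ± 14.1 CPM in MEFD3plu. The within-library ratio of Pik3r1 to Pik3r2 counts per kb was 0.758 to 0.819 in MEFD3min and 1.28 to 1.42 in MEFD3plu, and 0.486 to 0.531 in MEFD5min and 0.791 to 0.885 in MEFD5plu. Treated libraries were above untreated ones by 0.76 (SE 0.056) and 0.71 (SE 0.063) on the log2 scale, each with an exact permutation p of 0.1. In counts per kb, Pik3r1 was the higher of the 2 subunits in MEFD3plu and the lower in the other 4 conditions. That order rests on dividing by the full annotated exon length. In mean CPM, without that division, Pik3r1 was the higher in every condition. It was 112 against 93.1 in MEFD0, 294 against 153 in MEFD3min and 626 against 194 in MEFD3plu. At day 5 it was 101 against 80.8 in MEFD5min and 209 against 103 in MEFD5plu.

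**Figure D2:**
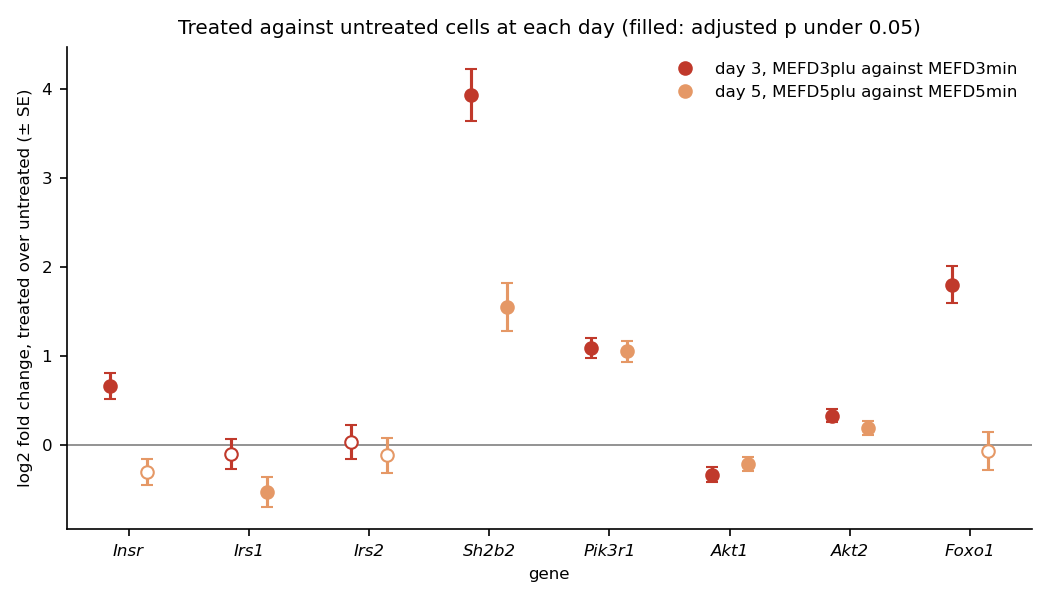
Log2 fold change of treated over untreated cells (vertical axis, ± SE derived from edgeR's F statistic) at day 3 and at day 5 for the 8 members above the floor in every condition, with filled points where the adjusted p was under 0.05. Sh2b2 fell from 3.94 at day 3 to 1.55 at day 5 and Foxo1 from 1.80 to -0.062, while Pik3r1 stood at 1.09 and 1.06.

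Akt1 (ENSMUSG00000001729, GRCm38 chr12:112653821-112674884, minus strand) and Akt2 (ENSMUSG00000004056, GRCm38 chr7:27591552-27640826, plus strand), the kinases below PI3K, moved in opposite directions with treatment at day 3. Akt1 was 459, 488 and 460 CPM in MEFD3min and 361, 388 and 371 CPM in MEFD3plu, a fall of -0.33 on the log2 scale (SE 0.080, adjusted p = 0.00198) with no overlap between the groups. Akt2 was 176, 190 and 166 CPM in MEFD3min and 217, 235 and 220 CPM in MEFD3plu, a rise of 0.33 (SE 0.076, adjusted p = 0.00124), also without overlap. Without MEFD3min replicate 3 these values were -0.30 (adjusted p = 0.00599) and 0.39 (adjusted p = 0.000482). Starting levels in MEFD0 were 430, 441 and 412 CPM for Akt1 and 111, 117 and 116 CPM for Akt2. Against MEFD0, Akt2 had risen in MEFD3min by 0.63 (adjusted p = 1.74e-06, or 0.58 without MEFD3min replicate 3), while Akt1 stood at 0.13 (adjusted p = 0.16).

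The day 5 differences of both kinases were small. Akt1 was 349, 346 and 317 CPM in MEFD5min and 323, 275 and 277 CPM in MEFD5plu, and the groups overlapped. Akt2 was 129, 119 and 119 CPM in MEFD5min and 151, 134 and 136 CPM in MEFD5plu, where the groups did not overlap. Akt1 was lower by a log2 fold change of -0.21 (SE 0.080, adjusted p = 0.0359) and Akt2 higher by 0.20 (SE 0.076, adjusted p = 0.0409). Neither call was stable. Akt1 did not pass without MEFD5min replicates 1 or 3 or MEFD5plu replicates 3 or 4 (-0.19, -0.19, -0.17 and -0.17, adjusted p from 0.0936 to 0.15). Akt2 did not pass in 13 of 22 other settings, and with scaling by total counts alone it stood at 0.035 (adjusted p = 0.753). It did not pass without MEFD5min replicates 3 (0.17) or 4 (0.14) or MEFD5plu replicates 1 (0.14) or 4 (0.22), nor without MEFD0 replicates 1, 3 or 4, MEFD3min replicate 1 or MEFD3plu replicate 1 (each 0.20), with adjusted p from 0.0526 to 0.241. For Akt2, 9.76% of 50-base stretches of its exons also occur in the pseudogene Akt2-ps, which had 70 to 169 counts per library.

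In counts per kb of exon Akt1 exceeded Akt2 6.19 to 6.76-fold within MEFD0 libraries, 4.47 to 4.81-fold in MEFD3min and 2.88 to 2.93-fold in MEFD3plu. At day 5 the ratio was 4.63 to 5.07 in MEFD5min and 3.55 to 3.71 in MEFD5plu. The treated minus untreated difference of the log2 ratio was -0.66 (SE 0.034) at day 3 and -0.41 (SE 0.045) at day 5, with an exact permutation p of 0.1 on each day, and this ratio needs no scaling between libraries.

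**Figure D3:**
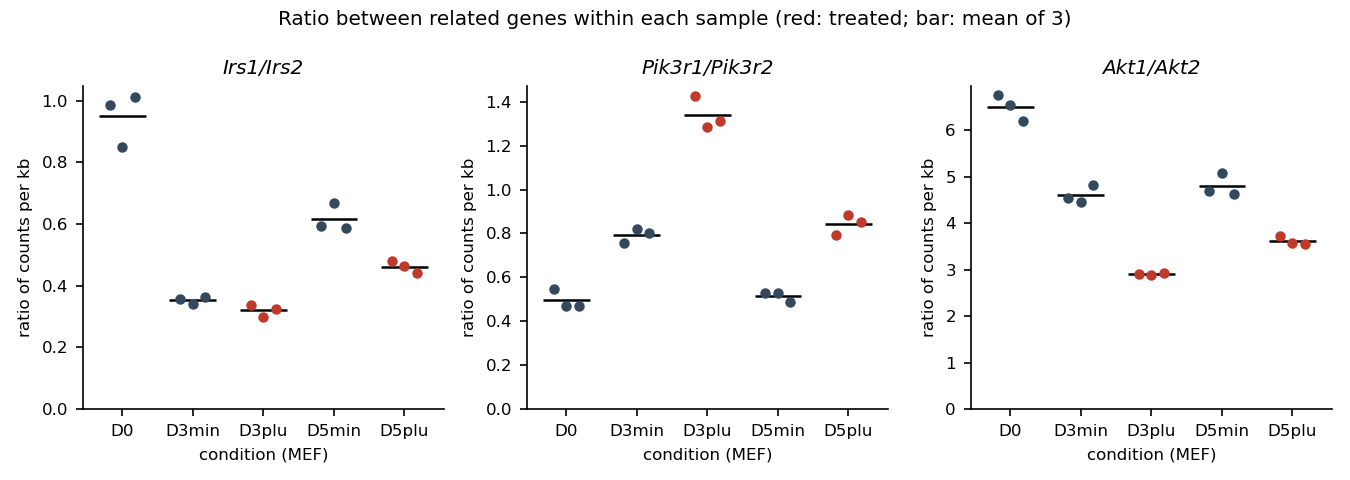
Within-library ratio of counts per kb of exon (vertical axes, from 0) for Irs1/Irs2, Pik3r1/Pik3r2 and Akt1/Akt2 in the 5 conditions, with treated conditions in red and a bar at the mean of 3. Akt1/Akt2 was lowest in MEFD3plu (2.88 to 2.93), where Pik3r1/Pik3r2 was highest (1.28 to 1.42).

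Foxo1 (ENSMUSG00000044167, GRCm38 chr3:52268336-52353221, plus strand), the transcription factor that Akt inhibits, was higher in treated cells at day 3, with no difference that passed the test at day 5. It was 5.28, 6.42 and 4.10 CPM in MEFD0, 6.99, 12.4 and 5.95 CPM in MEFD3min and 29.4, 28.9 and 30.6 CPM in MEFD3plu. At day 5 it was 7.26, 8.06 and 8.19 CPM in MEFD5min and 8.16, 6.25 and 8.08 CPM in MEFD5plu. The 3 MEFD3plu libraries were above all 12 others, and the day 5 groups overlapped. The day 3 difference was 3.49-fold (log2 fold change 1.80, SE 0.21, adjusted p = 1.06e-06), and 2.19 on the log2 scale without MEFD3min replicate 3. The day 5 difference was -0.062 (SE 0.21, adjusted p = 0.837), so that the effects differed by 1.87 (SE 0.30, adjusted p = 7.07e-05), and by 2.26 without MEFD3min replicate 3. From MEFD3plu to MEFD5plu the gene fell by 1.98 (adjusted p = 4.51e-07). Among the remaining conditions, MEFD3min (0.69, adjusted p = 0.0121) and MEFD5min (0.57, adjusted p = 0.0423) were called higher than MEFD0, and MEFD5plu did not pass against it (0.51, adjusted p = 0.0515). The MEFD3min call is given without single libraries with the comparisons along time. The MEFD5min call was lost in 9 of 22 other settings, namely total-count scaling and the fits without MEFD0 replicates 1 or 4, MEFD3plu replicates 1 or 3, any 1 MEFD5min replicate or MEFD5plu replicate 4 (0.42 to 0.62, adjusted p from 0.0508 to 0.173). The MEFD5plu difference passed in 8 of 22 other settings, among them the replicate block (adjusted p = 0.0292) and the fits without MEFD0 replicate 3 (0.68), MEFD3min replicates 3 or 4 (each 0.51) or MEFD5plu replicate 3 (0.62). MEFD5plu, MEFD5min and MEFD3min did not differ between neighbours in that order (adjusted p of 0.837 and 0.698).

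Slc2a4 (ENSMUSG00000018566, GRCm38 chr11:69942539-69948188, minus strand), which encodes GLUT4, was the only member at or below 3 counts in every untreated library. It had 0 counts in all 3 MEFD0 libraries, 0, 1 and 0 counts in MEFD3min and 2, 0 and 1 counts in MEFD5min. The 1 count in MEFD3min was in replicate 3. Treated libraries held 149, 161 and 196 counts in MEFD3plu (5.08, 5.04 and 5.53 CPM) and 397, 385 and 419 counts in MEFD5plu (11.8, 12.4 and 12.6 CPM). Against a floor of 3 counts per library, MEFD3plu was at least 56.1-fold higher than MEFD3min and MEFD5plu at least 131-fold higher than MEFD5min, given as a description since the filter kept the gene for its treated counts. Slc2a4 was also the only member that rose from MEFD3plu to MEFD5plu, 2.35-fold (log2 fold change 1.23, SE 0.17, adjusted p = 1.87e-05). The adipocyte markers moved with it, from at most 65.2 CPM summed in untreated libraries to at least 7553 CPM in treated ones, and their part in the result was not tested. The muscle markers, whose lineage also uses GLUT4, summed to at most 0.0341 CPM in MEFD3plu, to 0.447 to 0.784 CPM in MEFD5plu and to 0.754 to 1.87 CPM in MEFD5min.

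Per kb of exon, Slc2a4 remained the lowest of the 9 members in MEFD3plu (1.5 ± 0.0769 CPM per kb, SD, n = 3), and in MEFD5plu only Foxo1 (0.865 ± 0.125), Sh2b2 (2.12 ± 0.210) and Irs1 (2.54 ± 0.268) were lower than its 3.53 ± 0.120 CPM per kb. Irs1 reads in the stretch shared with Gm9747 may not have been counted, so its place below Slc2a4 is uncertain. Akt1 was the highest member in every condition, at 71.2 to 114 CPM per kb on average. Slc2a1, the gene of the widely expressed transporter GLUT1, was 64.3 ± 7.48 CPM in MEFD3min and 81.6 ± 1.92 CPM in MEFD3plu. It was 202 ± 36.7 CPM in MEFD5min and 90.5 ± 9.87 CPM in MEFD5plu, a fall of -1.16 on the log2 scale (SE 0.12, adjusted p = 6.36e-07). In counts per kb, Slc2a4 therefore reached 0.0614 to 0.0703 of Slc2a1 in MEFD3plu and 0.120 to 0.156 in MEFD5plu.

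Comparisons along time share groups with each other and with the comparisons above, and their counts are given side by side only. In untreated cells 6 members were called between MEFD0 and MEFD3min (beside 60.0% of all genes), all higher in MEFD3min, where 31.4% of all genes were called higher and 28.6% lower. Besides Insr, Irs2, Pik3r1 and Akt2, these were Irs1 (0.48, adjusted p = 0.0206) and Foxo1 (0.69, adjusted p = 0.0121). Without MEFD3min replicate 3 the last 2 stood at 0.20 (adjusted p = 0.202) and 0.30 (adjusted p = 0.14), and without MEFD0 replicate 4 at 0.37 (adjusted p = 0.0997) and 0.53 (adjusted p = 0.0666). Between MEFD3min and MEFD5min, 6 members passed (beside 42.8% of all genes, 21.3% higher and 21.5% lower), with Sh2b2 higher and Insr, Irs2, Pik3r1, Akt1 and Akt2 lower at day 5, and the fall of Insr did not pass without MEFD3min replicate 3 (-0.30, adjusted p = 0.0781) or MEFD5min replicate 4 (-0.42, adjusted p = 0.0547). From MEFD3plu to MEFD5plu, after the cocktail was removed, all 8 members above the floor passed and were lower. This stood beside 63.0% of all genes, 33.8% higher and 29.2% lower. All 8 also passed with any 1 library left out, and Slc2a4 was higher, as given above. Against MEFD0, 5 members passed in MEFD5min, 4 higher and 1 lower (beside 46.4% of all genes, 24.5% higher and 21.9% lower). Of the 8 members above the floor, 7 passed in MEFD3plu, 6 higher and 1 lower (beside 63.5%, 33.9% higher and 29.7% lower), and 6 passed in MEFD5plu, 4 higher and 2 lower (beside 65.0%, 35.2% higher and 29.8% lower). The MEFD5min count of 5 fell to 2 without MEFD0 replicate 4 or MEFD5min replicate 1, and to 3 without MEFD3plu replicates 1 or 3, MEFD5min replicate 4 or MEFD5plu replicate 4.

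Other genes of the pathway were taken from 7 lists of 97 genes, of which 89 were tested. At day 3, 60 of the 89 passed, 33 higher and 27 lower in treated cells, with a median log2 fold change of 0.12 beside -0.00057 over all genes tested. At day 5, 59 passed, 33 higher and 26 lower, with a median of -0.0041 beside 0.010. Among all genes tested, 56.1% passed at day 3 and 50.5% at day 5, the background for each list below. Called higher and lower were 28.0% each at day 3, and 26.3% and 24.2% at day 5. The list counts and medians include Irs4 and Pck1, which passed on both days. Both had 0 counts in untreated cells and were tested only because they were high in treated cells. No excess over all genes is therefore read from these counts, and no test of the lists was made. Without MEFD3min replicate 3 the day 3 count was 66.

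Among receptor adaptors 8 of 13, with Irs4, passed at day 3 (beside 56.1% of all genes), 4 higher and 4 lower. Dok1, a docking protein that dampens receptor signalling, fell most, from 48.2 ± 5.23 CPM in MEFD3min to 20.9 ± 0.298 CPM in MEFD3plu (log2 fold change -1.20, adjusted p = 1.70e-09). At day 5, 11 of 13, with Irs4, passed (beside 50.5% of all genes), 4 higher and 7 lower. Grb14, an inhibitor of the receptor kinase, fell most (-1.73, adjusted p = 1.09e-09). Irs4, an adaptor related to Irs1 that was singled out after its values were seen, had 0 counts in all 9 untreated libraries, 183 to 222 counts in MEFD3plu and 9 to 11 counts in MEFD5plu.

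Of 13 PI3K, Akt and mTOR kinase genes, 10 passed on each day (beside 56.1% of all genes at day 3 and 50.5% at day 5). At day 3, 6 were higher and 4 lower, and at day 5, 4 were higher and 6 lower. Sgk1, a kinase gene that glucocorticoids induce, rose most at day 3 (2.66, adjusted p = 3.00e-10), and Pik3r3, a regulatory subunit, at day 5 (2.03, adjusted p = 2.22e-09). Pik3cb, a catalytic subunit, fell most on both days (-1.70 and -1.94).

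Pde3b, the phosphodiesterase through which insulin lowers cyclic AMP, changed most among Akt substrates and targets. It went from 6.84 ± 0.54 CPM in MEFD3min to 334 ± 2.92 CPM in MEFD3plu (log2 fold change 5.61, adjusted p = 1.21e-16) and was 138 ± 5.32 CPM in MEFD5plu against 11.6 ± 1.08 CPM in MEFD5min (3.57, adjusted p = 7.32e-15). In that list 7 of 14 passed at day 3 (beside 56.1% of all genes), 6 higher and 1 lower. At day 5, 8 passed (beside 50.5%), 6 higher and 2 lower. Tbc1d1, a Rab GTPase-activating protein of GLUT4 vesicles, fell most on both days (-0.43 and -1.08). Its paralog Tbc1d4, which was added after its values were seen, rose on both days (3.33, adjusted p = 1.12e-11, and 0.74, adjusted p = 0.000534).

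Inhibitors of the pathway passed in 10 of 15 cases on each day (beside 56.1% of all genes at day 3 and 50.5% at day 5). They split into 6 higher and 4 lower at day 3 and 5 of each at day 5. Trib1, a pseudokinase, was the largest rise at day 3 (1.28, adjusted p = 5.89e-08) and the largest fall at day 5 (-1.26, adjusted p = 2.05e-07), a difference of 2.55 (adjusted p = 2.98e-09). Socs1, which blocks receptor and cytokine signalling, fell most at day 3 (-0.97), and Trib3, which binds Akt, rose most at day 5 (0.67).

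Of 16 genes of GLUT4 vesicle traffic, 12 passed at day 3 (beside 56.1% of all genes), 4 higher and 8 lower in treated cells. At day 5, 8 passed (beside 50.5%), 6 higher and 2 lower. Sort1, which encodes the sorting receptor sortilin, had the largest treated rise on both days, by 1.21 (adjusted p = 7.51e-08) and 2.85 (adjusted p = 1.24e-11). It was 31.9 ± 5.41 CPM in MEFD3min and 73.8 ± 2.14 CPM in MEFD3plu. At day 5 both levels were lower, at 5.30 ± 0.64 CPM in MEFD5min and 38.2 ± 1.57 CPM in MEFD5plu. Rala, a small GTPase of vesicle docking, fell most at day 3 (-0.68) and Trip10 at day 5 (-0.63). Of 6 other glucose transporter genes tested, 4 passed at day 3 and 3 at day 5 (beside the same 56.1% and 50.5%). Slc2a8 (0.66) and Slc2a10 (-0.80) were at the extremes of day 3 and Slc2a9 (1.10) and Slc2a1 (-1.16) at those of day 5.

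FoxO target genes, with Pck1, passed in 9 of 12 cases on each day (beside 56.1% of all genes at day 3 and 50.5% at day 5). At day 3, 5 were higher and 4 lower, and at day 5, 7 were higher and 2 lower. Pck1, the gluconeogenic and glyceroneogenic enzyme, had 0 counts in all 9 untreated libraries and was at least 17.1-fold higher in MEFD3plu (40 to 57 counts) and at least 175-fold higher in MEFD5plu (485 to 568 counts). Fbxo32, a ubiquitin ligase subunit, fell most at day 3 (-1.40, adjusted p = 2.18e-08) and Sesn3, a sestrin, at day 5 (-0.96, adjusted p = 4.23e-06).

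**Figure D4:**
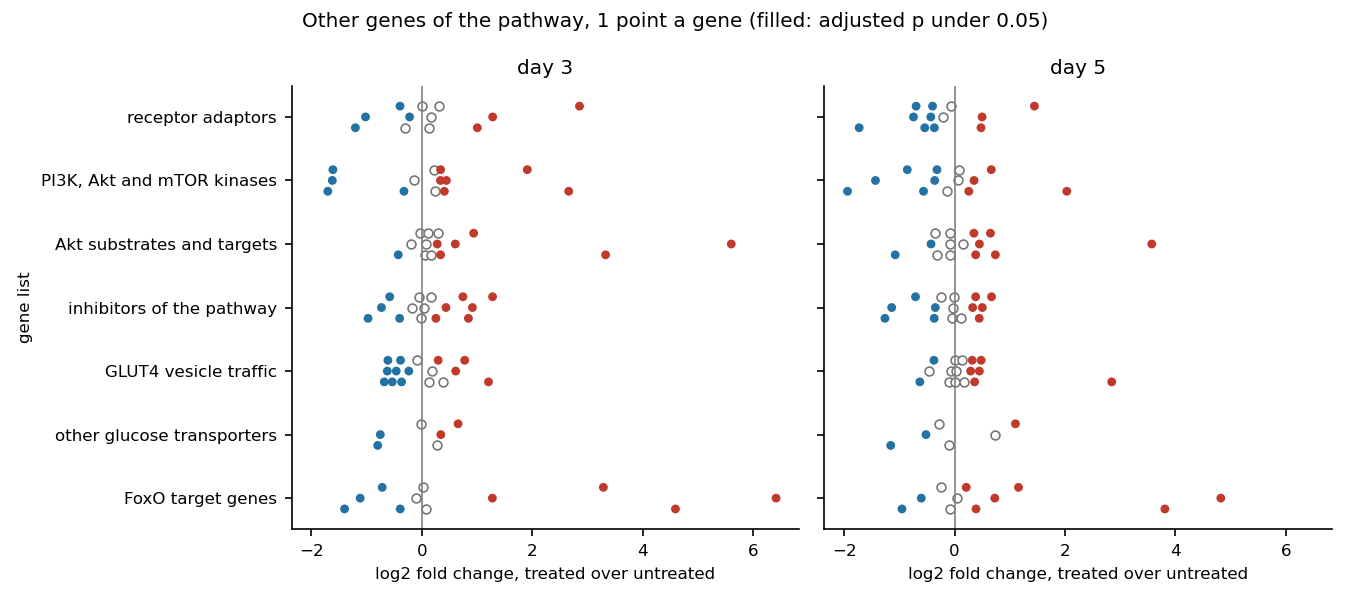
Log2 fold change of treated over untreated cells (horizontal axis) at day 3 and day 5 for 87 genes of 7 pathway lists, 1 point a gene, filled red or blue where the gene was called higher or lower and open where it was not called. Irs4 and Pck1, at 0 counts in untreated cells, are not drawn, and Pde3b stands at 5.61 and 3.57 among Akt substrates and targets.

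Genes whose level over the 15 libraries was most like that of a member were ranked by Pearson's r of log2 CPM among all 15997 genes, as a description only, since libraries of 1 condition share their treatment. For Slc2a4 these were Gm10851, Ffar2 and Cfd, the gene of the adipocyte protease adipsin (r of 0.998, 0.996 and 0.996). For Sh2b2 they were Saa3, Depp1 and Alas1 (0.976, 0.972 and 0.968), and for Foxo1 Glis3, Tmem259 and Ppt2 (0.974, 0.970 and 0.970). Pik3r1 was most like Fzd1, Tbc1d2b and Peg10 (0.993, 0.991 and 0.987). For Insr the genes were Frmd6, Zcchc24 and Lrp5 (0.987, 0.986 and 0.983), for Irs1 Tenm4, Fam168a and Clip3 (0.988, 0.978 and 0.976), for Irs2 Phf21a, Dennd2a and Col5a1 (0.990, 0.987 and 0.985), for Akt1 Timp2, Mapk8ip1 and Gdf11 (0.983, 0.964 and 0.961), and for Akt2 Tnfrsf1a, Cpeb4 and Maml3 (0.992, 0.985 and 0.984).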

How the data were processed

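RNA-seq of 15 MEF libraries (5 conditions, 3 libraries each, grouped by GEO's labels) was analysed from 1 file per library. The deposited values are raw gene counts that the authors made, per the submitters' processing notes with TopHat2 2.1.0, HTSeq and builds GRCm38 and mm10; the notes also list DESeq2. The strand setting of the counting is not given in the sources used here, and the labels name the TruSeq RNA kit v2 where the methods name a stranded kit, so counts of antisense partners may mix. Totals of 24030558 to 37281126 counts set the precision, and floors of 3 counts cover counting error only.

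Symbols were matched for 46005 of 46603 identifiers; exon lengths and overlaps came from the GRCm38 annotation. Genes were kept with filterByExpr (minimum count of 10), scaled by TMM and fitted in edgeR 4.0.16 (R 4.3.3) with quasi-likelihood tests in 1 model over the 5 conditions, with calls at an adjusted p under 0.05. The fits were also run on simulated data in which few genes changed, and only in MEFD3plu. That setting does not test them where as many genes differ as here. The SE of a fold change was its absolute log2 value divided by the square root of the quasi-likelihood F statistic. Exon-length ratios used a pseudocount of 0.5 and two-sided exact permutation tests. For correlations, CPM was put on a log2 scale after adding a prior count of 2. At day 3, libraries with the same replicate number deviated together (r of 0.143 to 0.360 for the 3 pairs, taken from the data and not stated in the labels). Same-numbered MEFD0 libraries did so more weakly, with r of 0.0837 to 0.180 to MEFD3min and 0.0706 to 0.124 to MEFD3plu. For unlike numbers these were -0.253 to 0.114 and -0.148 to 0.0401. A fit with the replicate number as a block was therefore compared. It changed no call of a member between treated and untreated cells of day 3.

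The genes named were the 9 members, in each list the largest called rise and fall at day 3 and day 5 among genes averaging 1 or more in log2 CPM, and the 3 genes most like each member; Irs4 and Tbc1d4 were added after their values were seen, and some genes that this rule names are not reported here. The members and lists were chosen with earlier results of these data known. Alternatives were DESeq2 1.42.0, its size factors, total-count scaling, other filters, only the compared samples, the block, a pseudocount of 2 and leaving out each library. Promoter windows were RefSeq's.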

Additional observations from a re-analysis of the deposited data

Results flagged for a closer look

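The effect of treatment differed between the days for 3 members, by the interaction term in edgeR, with p-values adjusted over all genes tested. The day 3 effect exceeded the day 5 effect by 2.39 on the log2 scale for Sh2b2 (adjusted p = 9.23e-05), by 1.87 for Foxo1 (adjusted p = 7.07e-05) and by 0.97 for Insr (adjusted p = 0.00087), and by 2.64, 2.26 and 1.15 without MEFD3min replicate 3. Every treated library was above every untreated one at day 3 for these genes; at day 5 that held for Sh2b2 alone, the Foxo1 groups overlapped, and every treated library was below every untreated one for Insr. Cells at day 5 differed from those at day 3 both in time since induction and in the removal of the cocktail, which cannot be told apart in this design. The summed fibroblast markers also differed between untreated groups (20764 to 28085 CPM in MEFD3min, 12006 to 13635 CPM in MEFD5min), and their part in the result was not tested. Over all genes 48.5% passed the same test.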

How the results depend on the processing

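Among the members' log2 fold changes under other settings, 1571 kept direction and side of the threshold, 72 no longer passed, 28 newly passed and 18 turned direction. Those fold changes include Slc2a4, whereas the counts below are over the 8 members above 3 counts in every condition. At day 3, 6 of the 8 passed with any library left out, where 8157 to 9283 of all genes tested passed. At day 5, 2 to 6 did, with 2 left without MEFD5plu replicate 4, where 6818 to 8691 of all genes tested passed. The remaining ranges with 1 library left out were 3 to 4 for the interaction, 4 to 6 (MEFD3min/MEFD0), 2 to 5 (MEFD5min/MEFD0) and 5 to 7 (MEFD5min/MEFD3min). They were 8 to 8 (MEFD5plu/MEFD3plu), 6 to 8 (MEFD3plu/MEFD0) and 5 to 7 (MEFD5plu/MEFD0). The shares of all genes are given with these comparisons above. Total-count scaling left 3 members in MEFD5min/MEFD0, and it moved the day 5 median of all genes from 0.01 to -0.15 and the share of calls that were higher from 52.1% to 37%, the interaction median from -0.03 to 0.15 and that share from 46.7% to 59.5%, and the share for MEFD5min/MEFD3min from 49.7% to 62.7% and for MEFD5plu/MEFD0 from 54.2% to 43.7%.

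Directions that turned all belonged to values that did not pass the test. With 1 library left out, the ranges of these values were -0.28 to 0.18 (Irs1, day 3), -0.16 to 0.35 (Irs2, day 3), -0.13 to 0.053 (Foxo1, day 5), -0.045 to 0.47 (Irs2, interaction), -0.044 to 0.18 (Pik3r1, interaction), -0.049 to 0.14 (Irs1, MEFD5min/MEFD0), -0.31 to 0.27 (Foxo1, MEFD5min/MEFD3min) and -0.058 to 0.16 (Insr, MEFD5plu/MEFD0). The last was also -0.00034 with DESeq2, -4.57e-05 with its size factors and -0.12 with total counts alone, where the Akt1 interaction was 0.065. With a pseudocount of 2 the Slc2a4/Slc2a1 log2 ratio difference was 5.87 at day 3 and 8.26 at day 5, where 0.5 gave 7.52 and 9.49, and the untreated counts are at the floor. The cause of these changes was not tested.

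With the replicate number as a block, 6 of the 8 members passed at day 3, 6 at day 5 and 3 in the interaction. Over all 15997 genes, 9452, 8607 and 8305 passed in that fit. At day 5 same-numbered libraries did not deviate together (r of -0.0045 to 0.0538), and the block added Insr (-0.29, adjusted p = 0.0486). It added Irs1 in MEFD5min/MEFD3min (-0.40) and MEFD3plu/MEFD0 (0.39) and Foxo1 in MEFD5plu/MEFD0 (0.53), and it changed no other call of a member. Depth limits Slc2a4 in untreated libraries, where a count of 0 allows up to 3 counts.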

Other observations

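Levels over the 5 conditions are given here, with no test, for Irs4 and Slc2a1, which were no members. Irs4 was present in treated libraries only, at 6.35 ± 0.667 CPM (SD, n = 3) in MEFD3plu and 0.297 ± 0.0323 CPM in MEFD5plu. Slc2a1 was at 113 ± 9.13 CPM in MEFD0 and peaked in MEFD5min at 202 ± 36.7 CPM.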
